A study of Citrus sinensis with 12 samples.

Results

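Acidification alone was studied in roots of sweet orange (Citrus sinensis) seedlings, by comparing plants kept at pH 3 with plants kept at pH 4.8 while the copper supply stayed at 0.5 µM CuCl2. Membership was set by the pH and copper labels, and it took in 6 of the 12 RNA-seq libraries of the series, 3 at pH 3 and 3 at the control pH of 4.8. All plants were treated for 17 weeks, and roots of 4 seedlings from separate pots were pooled for every library, so differences between single plants are not seen. The sample titles of the control group read 5 µM copper where their treatment label reads 0.5 µM, the value also found in the design text and used here. The other 6 libraries, grown at the same pH values with 300 µM CuCl2, serve below as other libraries in which the pH difference was measured.

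A pH of 3 exposes roots to a high proton activity. Plant roots pump protons out of their cells with a plasma membrane H+-ATPase, and the gradient this builds drives the uptake of nitrate, phosphate, potassium and other ions. An excess of protons outside works against that pump, loosens the calcium-pectin bonds of the cell wall and slows root growth. In Arabidopsis, tolerance of low pH depends on the zinc-finger transcription factor STOP1.

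The tables list FPKM (fragments scaled to gene length and to library size) for 20122 genes, with a position and no gene name. Of the identifiers, 0 occur in the RefSeq gene table of the species used here. The text names a gene by its identifier and its position in the authors' coordinates. The sources used here do not give the build of those coordinates. No function is assigned to any gene, and the root label could not be checked with marker genes. A total of 1392 entries carry no annotated identifier. They are called assembled loci and are given by position.

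The 6 libraries held 17710000 to 22780000 fragments, estimated from the spacing of low FPKM values. For a gene of 1 kb, 3 fragments made 0.132 to 0.169 FPKM. Within either group, the median absolute difference between a pair of libraries was 0.1205 to 0.139 on the log2(FPKM + 1) scale. Between the groups it was 0.256 to 0.336, above every value within a group. The summed FPKM was 556291 to 569606 at pH 3 and 582394 to 597341 at pH 4.8, without overlap (exact permutation test, two-sided, p = 0.1, the smallest that 3 against 3 allows). The number of genes at 1 FPKM or above was 17621 to 17698 at pH 3 and 17663 to 17842 at pH 4.8, with overlapping groups (exact permutation p = 0.2).

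Low pH moved many genes by small amounts and few by large ones. In 18366 genes the mean of one or both groups reached 1 FPKM, and of these 2544 were higher at pH 3 (13.9%) and 4141 were lower (22.5%), at a limma adjusted p under 0.05. Together these are 6685 genes, or 36.4%. All differences are on the log2(FPKM + 1) scale and stand for pH 3 minus pH 4.8. The median difference was 0.54 among the genes that were higher and -0.53 among those that were lower. At least 2-fold (a difference of 1) higher were 330 genes (1.8%), and 307 were at least 2-fold lower (1.67%). A difference of at least 2, or 4-fold, was reached by 15 genes upward (0.0817%) and 12 downward (0.0653%). Replicates are pools of seedlings, so a p-value here reflects how pools vary, and in bulk roots fewer cells of a type cannot be told apart from less RNA per cell.

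The excess of lower genes depended on the scale. The median of all tested genes was -0.07. Quantile normalization brought it to -0.012 and evened the split to 3160 higher and 3433 lower, and median scaling brought it to -0.013 with 3155 higher and 3280 lower. The share of higher genes among calls was 38.1% as deposited and 47.9% and 49.0% under these scalings, so the direction of small differences depended on the scaling. Complete separation of the 3 pools was common: 4077 genes (22.2%) had all 3 pH 3 libraries above all 3 controls, and 6038 (32.9%) had them below. All 330 and 307 genes changed at least 2-fold were separated in this way. At an unadjusted p under 0.05 there were 8549 genes (46.5%). The filter sat close to genes on either side, with 1.00 FPKM in the higher group just inside it and 0.997 just outside.

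**Figure D1:**
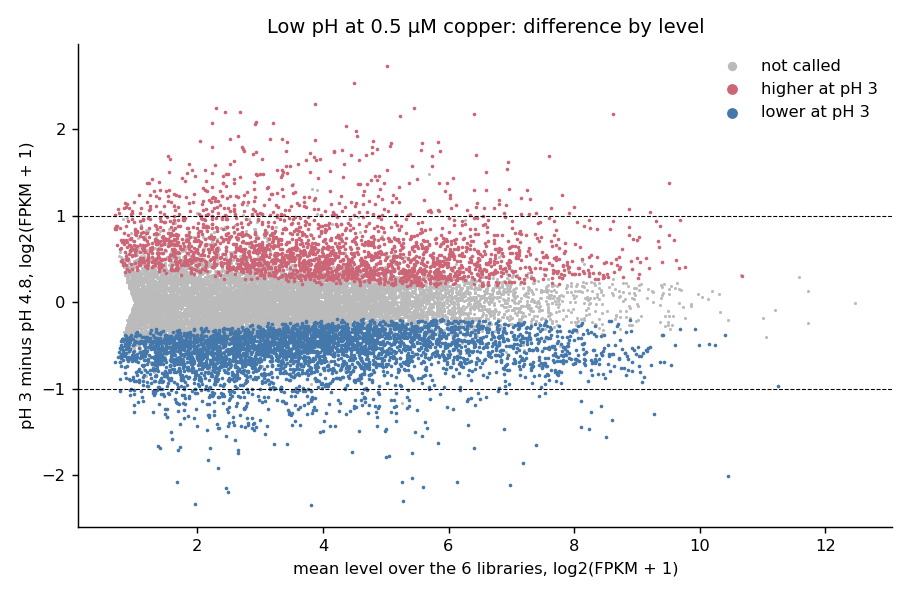
Difference between pH 3 and pH 4.8 at 0.5 µM copper (log2(FPKM + 1), vertical axis) against the mean level over the 6 libraries (horizontal axis), 1 point per tested gene, with dashed lines at 2-fold. Called genes lie on both sides over most of the range of levels, 330 of them above the upper line and 307 of them below the lower line.

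On the log2(FPKM + 1) scale, and among genes whose higher group averaged 5 FPKM or more, the leading rise was at Cs7g01050, a gene of 804 bp on chromosome 7 (36794 to 37597, minus strand). It was at 69.50, 55.44 and 41.16 FPKM in the pH 3 libraries and at 6.12, 6.92 and 9.23 FPKM in the controls. The lowest pool at pH 3 thus stood well above the highest control pool. The difference was 2.73 (SE 0.20, adjusted p = 4.4e-06 in limma), and the mean was 7.46 times that of the controls. At 300 µM copper the same gene was higher still at both pH values, with means of 223 ± 57.2 FPKM at pH 3 and 287 ± 19.7 FPKM at pH 4.8 (SD, n = 3 in each group).

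Cs1g19920, on chromosome 1 (23077109 to 23077600, minus strand), had another pattern under copper. Its levels were 32.59, 40.51 and 39.64 FPKM at pH 3 against 4.52, 6.66 and 5.98 FPKM at pH 4.8, a log2 difference of 2.53 (SE 0.24, adjusted p = 1.8e-05 in limma). Of the 4 groups, pH 3 at 0.5 µM alone was high: the means at 300 µM were 5.10 ± 2.27 FPKM at pH 3 and 8.21 ± 2.68 FPKM at pH 4.8 (SD, n = 3 in each group).

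The leading falls on the same scale were at an assembled locus and at Cs1g26375. On unplaced sequence, the assembled locus between 7624520 and 7625182 read 4.64, 4.26 and 2.21 FPKM at pH 3 and 22.44, 26.29 and 18.40 FPKM at pH 4.8. Its groups lay far apart, with a log2 difference of -2.34 (SE 0.32, adjusted p = 0.00018 in limma). Cs1g26375 on chromosome 1 (28437185 to 28439516, minus strand) was at 0.10, 0.30 and 0.40 FPKM at pH 3 and at 3.95, 7.60 and 5.01 FPKM in the controls. The difference was -2.33 (SE 0.23, adjusted p = 2.2e-05 in limma). Its pH 3 values are near the floor, and the size became -3.99 with a pseudocount of 0.1.

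Of the 1159 genes averaging 100 FPKM or more over the 6 libraries, 256 were higher at pH 3 (22.1%, beside 13.9% of all tested genes), 410 were lower (35.4%, beside 22.5%) and 493 were not called. By at least 2-fold 23 of them were higher (1.98%, beside 1.8% of all tested genes) and 17 lower (1.47%, beside 1.67%), close to the shares of all genes. Cs1g06880 on chromosome 1 (6942425 to 6943980, minus strand) led the rises. It stood at 683.26, 603.99 and 641.60 FPKM at pH 3 and at 138.50, 127.54 and 159.27 FPKM at pH 4.8. Pools of a group differed little beside the gap between groups, which was 2.18 (SE 0.14, adjusted p = 3.9e-06 in limma). Cs5g04630 on chromosome 5 (2713899 to 2714726, minus strand) followed, at 277.20, 293.62 and 318.83 FPKM against 86.72, 94.04 and 93.97 FPKM, a log2 difference of 1.68 (SE 0.14, adjusted p = 8.6e-06 in limma).

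Abundant genes that fell included a very strongly expressed one. Cs1g19393 on chromosome 1 (22698330 to 22698996, plus strand) was at 2190.23, 2424.87 and 2141.23 FPKM in the controls and at 543.15, 624.75 and 509.37 FPKM at pH 3. The mean was 2252 ± 152 FPKM at pH 4.8 and 559 ± 59.3 FPKM at pH 3 (SD, n = 3 each). This is a log2 difference of -2.01 (SE 0.19, adjusted p = 1.7e-05 in limma). Cs8g01990 on chromosome 8 (605311 to 605933, minus strand) fell from 194.77, 251.86 and 169.49 FPKM to 51.00, 42.24 and 45.17 FPKM at pH 3. Control pools spread more widely than acid pools for this gene but did not reach them, and the difference was -2.12 (SE 0.15, adjusted p = 4.2e-06 in limma).

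The 100 genes with the highest mean over the 6 libraries comprised 19 that were higher at pH 3, 28 that were lower and 53 that were not called, beside 13.9% higher and 22.5% lower of all tested genes. By at least 2-fold 2 were higher and 2 lower, beside 1.8% and 1.67% of all tested genes. They held 16.2% to 16.6% of the summed FPKM at pH 3 and 16.2% to 16.8% at pH 4.8, with overlapping groups. Ranked within each group, the 100 most abundant genes had 69 in common. The 330 genes raised at least 2-fold took 2.5% to 2.63% of the summed FPKM at pH 3 and 0.876% to 1.02% at pH 4.8. The 307 lowered genes took 0.860% to 0.960% at pH 3 and 2.25% to 2.62% at pH 4.8. These shares describe genes chosen for this difference.

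**Figure D2:**
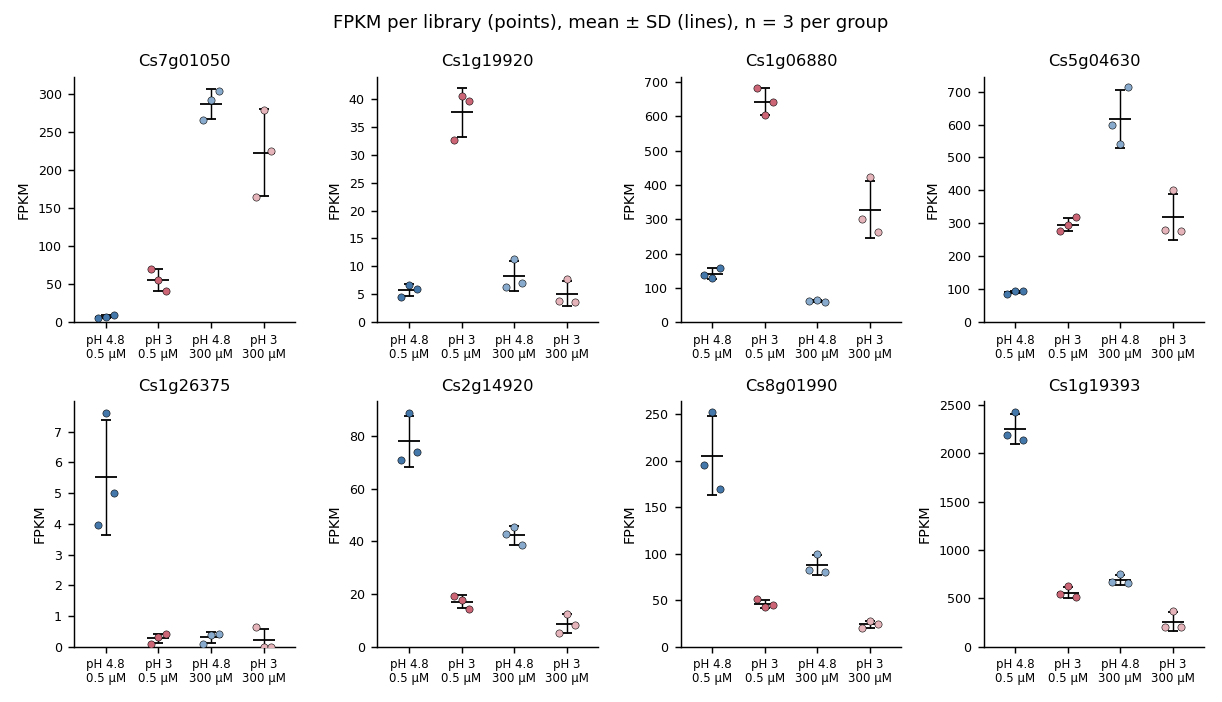
FPKM of 8 genes in all 12 libraries (vertical axes, linear, starting at 0), grouped by pH and copper; points are libraries and lines are the mean ± SD of 3. In the groups at 0.5 µM copper the pH 3 points lie above the controls in the 4 upper panels and below them in the 4 lower panels, without overlap.

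Near-absence in one group was rare. Over the 6 libraries, 5 genes were at or under 0.5 FPKM in all 3 pools of a group and at or above 2 FPKM in all 3 pools of the other. Cs7g18030 on chromosome 7 (13828403 to 13829865, minus strand) was the only one of them that was higher at pH 3. It read 5.83, 2.28 and 2.27 FPKM at pH 3 and 0.46, 0.27 and 0.17 FPKM at pH 4.8 (difference 1.69, SE 0.24, adjusted p = 0.00024 in limma). The control values are near the floor, and a pseudocount of 0.1 made the difference 3.07. With 300 µM copper it stood far above either level, at 15.03 ± 2.92 FPKM at pH 3 and 24.5 ± 0.457 FPKM at pH 4.8 (SD, n = 3 in each group).

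The 4 others, Cs1g26375 among them, were present in the controls and nearly absent at pH 3. Cs5g22560 on chromosome 5 (25217548 to 25219066, minus strand) was at 0.26, 0.07 and 0.20 FPKM at pH 3 and at 3.67, 6.37 and 2.53 FPKM at pH 4.8 (difference -2.08, SE 0.22, adjusted p = 3.5e-05 in limma). Cs3g14690 on chromosome 3 (18989883 to 18990791, minus strand) was at 0.37, 0.30 and 0.07 FPKM against 2.26, 3.06 and 3.78 FPKM (difference -1.68, SE 0.22, adjusted p = 0.00015 in limma). On chromosome 2, the assembled locus between 1763326 and 1765171 read 0.24, 0.39 and 0.10 FPKM against 3.07, 3.09 and 2.64 FPKM (difference -1.67, SE 0.13, adjusted p = 5e-06 in limma). All 4 were also low in the copper-treated libraries of both pH values, where the highest reading among them was 1.18 FPKM. With a pseudocount of 0.1 the 4 differences were -3.99, -3.92, -3.27 and -3.23, in the order named, so their size rests on values near the floor.

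Whether the pH difference was also present under copper excess was read from the means of the 6 libraries at 300 µM. These means do not enter the differences above, though the libraries share in the estimate of the spread behind every p. Over all tested genes, low pH at 300 µM copper called 7706 (42.0%), with 3440 higher (18.7%) and 4266 lower (23.2%). Fitted on the 6 libraries of each copper level alone, 6117 genes were called at 300 µM and 7962 at 0.5 µM. Which copper level had more calls thus depended on the fit. Pools of the pH 3 group at 300 µM varied most, with a median SD of 0.178, beside 0.114 to 0.125 in the other groups. Many genes kept their direction, in both sets. Of the 307 lowered at least 2-fold at 0.5 µM, 194 were also lower at 300 µM (63.2%), 27 were higher and 86 were not called, with a median difference of -0.72 at 300 µM. Of the 330 raised at least 2-fold, 136 were also higher at 300 µM (41.2%), 51 were lower and 143 were not called, with a median difference of 0.19. The count of 51 became 28 without replicate 1 of the pH 3 group at 300 µM, and 29 without replicate 3 of the pH 4.8 group at 300 µM. It was 67 without replicate 2 of the pH 3 group at 300 µM. Whether the shares 63.2% and 41.2% differ was not tested.

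Cs1g06880 and Cs1g04680 led the rises called at both copper levels, ranked by the smaller of the differences at 0.5 and 300 µM. A large difference at 300 µM was thus a condition of naming them. At 300 µM Cs1g06880 read 299.53, 423.21 and 262.40 FPKM at pH 3 and 62.60, 64.28 and 57.67 FPKM at pH 4.8, a log2 difference of 2.37 (SE 0.14, adjusted p = 9.9e-08 in limma) beside 2.18 at 0.5 µM. Both levels were lower with copper than without, and the interaction was 0.19 (SE 0.20, adjusted p = 0.55 in limma). Cs1g04680 on chromosome 1 (4221580 to 4223195, plus strand) was at 9.11, 10.86 and 8.49 FPKM at pH 3 and at 1.00, 1.46 and 1.42 FPKM at pH 4.8, a log2 difference of 2.19 (SE 0.17, adjusted p = 6.3e-06 in limma). Its difference at 300 µM was 2.31 (SE 0.17, adjusted p = 5.5e-07 in limma), from means of 5.22 ± 0.886 and 0.267 ± 0.293 FPKM (SD, n = 3 in each group).

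The same ranking named the falls Cs2g14920 and Cs8g01990. Cs2g14920 on chromosome 2 (11821833 to 11823946, plus strand) was lower at both copper levels. It was at 19.27, 17.54 and 14.30 FPKM at pH 3 against 70.92, 88.92 and 74.00 FPKM at pH 4.8, a log2 difference of -2.13 (SE 0.21, adjusted p = 2.2e-05 in limma). At 300 µM it was at 5.30, 12.49 and 8.16 FPKM against 42.63, 45.53 and 38.60 FPKM, a log2 difference of -2.23 (SE 0.21, adjusted p = 3.9e-06 in limma). The groups were apart at either copper level. Cs8g01990 fell by 1.84 at 300 µM (SE 0.15, adjusted p = 1e-06 in limma) beside 2.12 at 0.5 µM. Of the 18366 tested genes, 74 were at least 2-fold higher and 108 at least 2-fold lower at both copper levels with no overlap between pools at either. At 0.5 µM alone, 330 were called and at least 2-fold higher and 307 lower, all without overlap.

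The difference between the pH effects was tested as an interaction, the pH difference at 300 µM minus that at 0.5 µM. It passed the threshold for 3668 genes (20%), with 1994 above 0 (10.9%) and 1674 below 0 (9.11%). Among the 330 genes raised at least 2-fold by acid, 206 had an interaction below 0, which is a smaller or opposite pH difference under copper, 28 had one above 0 and 96 were not called. Among the 307 lowered genes, 103 had an interaction above 0, 5 had one below 0 and 199 were not called. Both sets were chosen on libraries that also enter the interaction, so these counts describe the sets and are no support for them.

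Cs7g01050 and Cs1g19920 are the leading rises that were not called at 300 µM. They are named here for a called interaction and a small or opposite difference at 300 µM, so both follow in part from the choice. The pH differences at 300 µM were -0.40 (SE 0.20, adjusted p = 0.14 in limma) and -0.62 (SE 0.24, adjusted p = 0.054 in limma). The interactions were -3.12 (SE 0.29, adjusted p = 1.2e-05 in limma) and -3.15 (SE 0.34, adjusted p = 3.9e-05 in limma). Cs5g04630 went further and turned direction, with means of 319 ± 71.0 FPKM at pH 3 and 617 ± 87.8 FPKM at pH 4.8 under copper (SD, n = 3 in each group). Its difference at 300 µM was -0.96 (SE 0.14, adjusted p = 0.00013 in limma).

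Cs2g31070 on chromosome 2 (30431926 to 30432530, plus strand) stood for lowered genes of this kind. It read 2.01, 0.31 and 0.94 FPKM at pH 3 against 10.15, 7.10 and 7.19 FPKM at pH 4.8, a log2 difference of -2.20 (SE 0.24, adjusted p = 4e-05 in limma). Under 300 µM copper all 6 libraries were between 0.49 and 0.68 FPKM, so no pH difference was detectable at these levels (difference 0.08, SE 0.24, adjusted p = 0.80 in limma). The interaction was 2.28 (SE 0.33, adjusted p = 0.00037 in limma). Cs1g26375 had the same form, with an interaction of 2.20 (SE 0.32, adjusted p = 0.0004 in limma) and at most 0.63 FPKM in any copper-treated library.

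Median levels of both sets in every group are given for orientation. The 330 raised genes had a median of 12.7 to 13.7 FPKM in the pH 3 libraries and 4.08 to 5.04 FPKM in the controls. With 300 µM copper the median was 12.8 to 14.0 FPKM at pH 4.8 and 16.3 to 17.8 FPKM at pH 3. The 307 lowered genes had a median of 3.71 to 4.28 FPKM at pH 3 and 10.1 to 11.5 FPKM in the controls, and with copper 5.29 to 6.04 FPKM at pH 4.8 and 2.83 to 3.57 FPKM at pH 3. In the raised set, the controls were thus the lowest of the 4 groups, and in the lowered set the highest. Acid and copper share these control libraries and the sets were chosen on them, so no comparison between acid and copper is drawn from the levels.

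**Figure D3:**
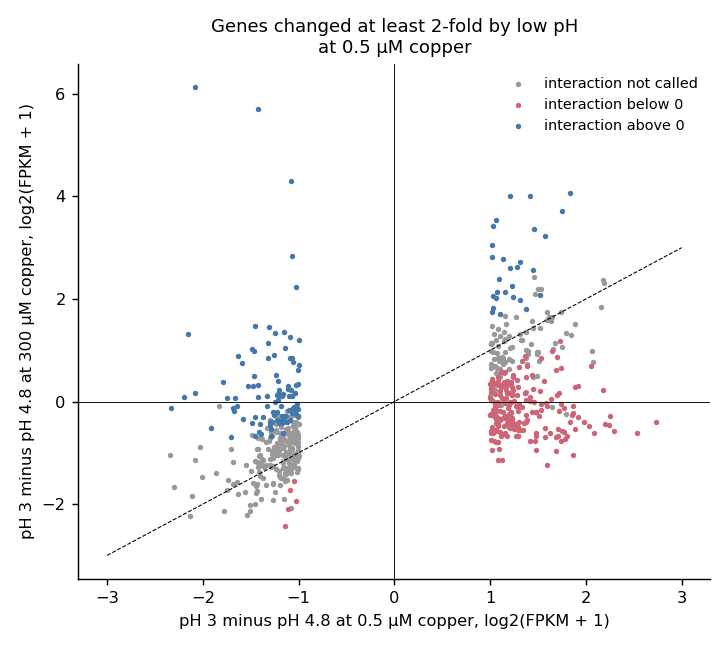
Difference between pH 3 and pH 4.8 at 300 µM copper (vertical axis) against that at 0.5 µM copper (horizontal axis), both on the log2(FPKM + 1) scale, for the genes changed at least 2-fold at 0.5 µM; the dashed line marks equal differences. Of the raised genes on the right, 206 have an interaction below 0, and most of the lowered genes on the left, 199 of 307, have no called interaction.

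Genes that changed strongly sometimes lay side by side. A raised 2-fold gene was followed along the chromosome by another raised 2-fold gene in 26 of 330 cases (7.88%), where 1.8% of all tested genes were raised that far. A lowered gene was followed by another lowered one in 19 of 307 cases (6.19%), beside 1.67% of all genes. Opposite changes in adjacent genes were seen 2 times from either side. None of the adjacent pairs overlapped in position (0), and 18 of the 26 raised pairs and 9 of the 19 lowered pairs lay on the same strand. Over all called genes the shares were closer to the background. The next gene was also higher for 20.2% of higher genes, beside 13.9% of all genes, and also lower for 26.4% of lower genes, beside 22.5%.

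The longest unbroken runs held 3 genes, 4 runs raised and 3 lowered. The strongest lowered run lay on chromosome 3 from 12704300 to 12713233 and held Cs3g08970, Cs3g08980 and Cs3g08990, of 360 to 393 bp and all on the minus strand. Cs3g08990 was at 68.46, 61.93 and 51.83 FPKM at pH 3 and at 172.64, 294.68 and 215.47 FPKM at pH 4.8. Cs3g08980 was at 14.77, 12.71 and 8.57 FPKM against 48.72, 83.05 and 58.21 FPKM, and Cs3g08970 at 2.05, 1.04 and 0.45 FPKM against 7.53, 7.53 and 5.61 FPKM. Though their levels differed widely, their log2 differences were -1.86, -2.30 and -1.91 (SE 0.24, 0.29 and 0.32, adjusted p = 0.00013, 0.00012 and 0.0007 in limma). The tested gene before the run, Cs3g08960, was not called (-0.32, adjusted p = 0.066 in limma), and the one after it, Cs3g09000, was higher at pH 3 (0.44, adjusted p = 0.013 in limma). Both calls depended on single libraries: Cs3g08960 was called without replicate 2 of the pH 3 group (-0.41, adjusted p = 0.045 in limma), and Cs3g09000 was not without replicate 3 of that group (0.35, adjusted p = 0.065 in limma) or replicate 2 of the controls (0.32, adjusted p = 0.062 in limma).

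The strongest raised run lay on chromosome 7 between 19201437 and 19235133 and consisted of 3 assembled loci on the plus strand. They were raised by 1.80 (SE 0.50, adjusted p = 0.015 in limma), 1.45 (SE 0.25, adjusted p = 0.00083 in limma) and 2.07 (SE 0.43, adjusted p = 0.0026 in limma), in order of position. The call of the first of them was lost without replicate 1 of the pH 3 group (1.61, adjusted p = 0.054 in limma) or replicate 1 of the controls (1.67, adjusted p = 0.051 in limma). This locus read 11.87, 6.39 and 9.19 FPKM at pH 3 and 1.38, 1.92 and 2.33 FPKM at pH 4.8. Its pools at pH 3 with 300 µM copper, which share in the SE, read 34.96, 13.69 and 3.88 FPKM. With the 6 libraries at 0.5 µM alone its adjusted p was 0.00024 in limma. A further raised run began with Cs1g19920, whose neighbours Cs1g19930 and Cs1g19935 were raised by 1.3 and 1.13 (SE 0.17 and 0.14, limma adjusted p = 0.00018 and 0.00011). Cs1g19930 was at 133.71, 128.03 and 145.18 FPKM at pH 3 and at 64.99, 51.72 and 48.25 FPKM at pH 4.8, the highest level of the run.

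The wider neighbourhood on chromosome 8 from 9231120 to 9379219 was picked after its values were seen. It held 6 raised 2-fold genes among 9 tested genes within 148 kb, and the other 3 were not called. The 6 raised genes were Cs8g10300, Cs8g10340, Cs8g10360, Cs8g10380, Cs8g10390 and the assembled locus from 9296665 to 9297502. Cs8g10300 led them, at 80.32, 68.46 and 65.09 FPKM at pH 3 and at 14.17, 11.04 and 18.16 FPKM at pH 4.8, a log2 difference of 2.25 (SE 0.21, adjusted p = 1.6e-05 in limma). Cs8g10380 changed least, at 10.45, 9.23 and 7.66 FPKM against 3.33, 3.26 and 5.23 FPKM, a log2 difference of 1.05 (SE 0.20, adjusted p = 0.0016 in limma). All 6 had an interaction below 0, from -2.70 to -1.60, and under 300 µM copper none was higher at pH 3, while Cs8g10360 and Cs8g10380 were lower (-0.70 and -0.55, adjusted p = 0.014 and 0.040 in limma). An interaction below 0 was also called for 206 of all 330 raised genes (62.4%), beside 9.11% of all tested genes. The 6 genes were chosen on libraries that enter the interaction, so it is no support for the group. Counting same-direction 2-fold genes up to 50 kb apart, there were 10 neighbourhoods with 3 or more raised genes and 5 with 3 or more lowered genes. Near-identical copies that share reads can lie side by side, and their part in these groups was not tested.

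**Figure D4:**
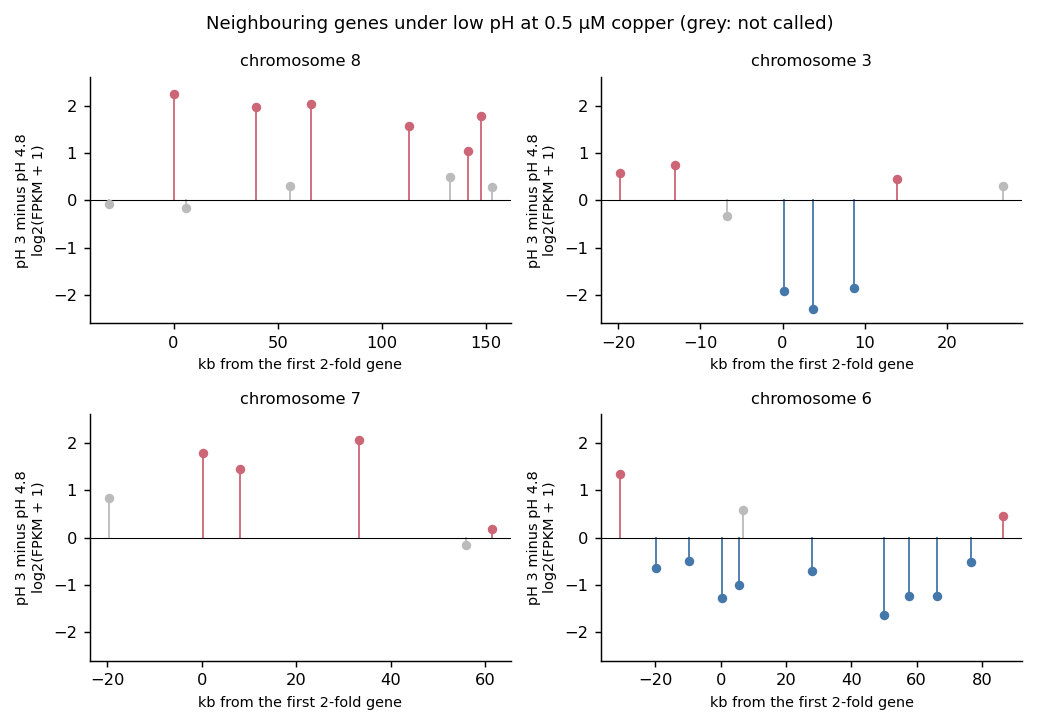
Difference between pH 3 and pH 4.8 at 0.5 µM copper (log2(FPKM + 1), vertical axes) for all tested genes in and around 4 neighbourhoods, against the distance in kb from the first 2-fold gene (horizontal axes); red is higher, blue lower and grey not called. On chromosome 8 the 6 raised 2-fold genes stand among 3 genes that were not called, and on chromosome 3 the 3 lowered genes lie next to each other.

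The difference between the pH values varied with the span of a gene. The span of a gene, from its start to its end with introns, was used in place of transcript length. The median difference was -0.21 for the 395 genes of up to 500 bp, -0.14 up to 1000 bp, -0.09 up to 2000 bp, -0.10 up to 4000 bp, -0.03 up to 8000 bp and 0.05 for the 1305 genes over 8000 bp. Of the shortest class 6.84% were lowered at least 2-fold and 3.29% raised, and of the longest class 0.153% were lowered and 0.69% raised. Over all tested genes these shares were 1.67% lowered and 1.8% raised. In the longest class 162 genes were called higher (12.4%, beside 13.9% of all) and 143 lower (11.0%, beside 22.5%). Under median scaling these were 230 and 97, with medians from -0.157 in the shortest to 0.103 in the longest class, and quantile normalization gave -0.146 and 0.1. The order of the shortest and the longest class was the same at all levels of expression: under 10 FPKM the medians were -0.15 and -0.003, from 10 to 50 FPKM -0.27 and 0.08, and over 50 FPKM -0.40 and 0.11. With all pools together, the pH difference at 300 µM copper did not show this gradient. Its medians were -0.11 in the shortest and -0.089 in the longest class, and -0.055 to -0.029 in the classes between. Replicate 2 of the pH 3 group at 300 µM departed from the other pools here, as given below.

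Single libraries varied in the same measure. Relative to the mean of the 6 libraries, the median level of genes over 8000 bp minus that of genes up to 500 bp was 0.121, 0.011 and 0.198 at pH 3 and -0.034, -0.238 and -0.134 at pH 4.8. The pH 3 libraries were all above the controls, but the nearest libraries of the 2 groups were closer to each other than to the other libraries of their own group. The group means were 0.110 ± 0.094 and -0.135 ± 0.102 (SD, n = 3 in each group; exact permutation test, two-sided, p = 0.1, the smallest that 3 against 3 allows). Copper-treated libraries read 0.472, -0.005 and 0.499 at pH 3 and 0.442, 0.299 and 0.278 at pH 4.8. At pH 3 replicates 1 and 3 stood above every pH 4.8 library with copper, and replicate 2 below all of them. The absence of a gradient at 300 µM thus rested on replicate 2, and it was not recomputed without that pool. RNA integrity was not analysed here, and its part in this pattern was not tested.

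**Figure D5:**
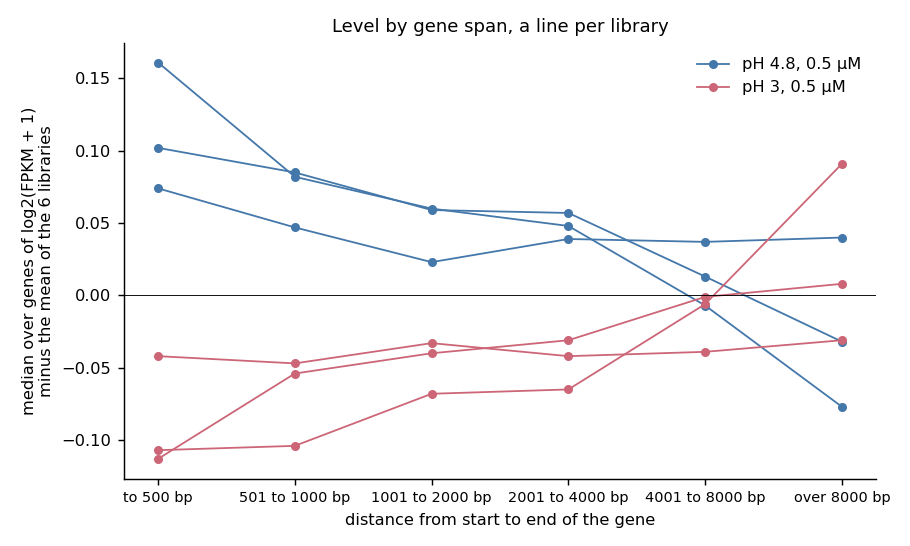
Median over genes of the level relative to the mean of the 6 libraries (log2(FPKM + 1), vertical axis) in 6 classes of gene span (horizontal axis), 1 line per library. Lines of the pH 3 group and the control group are apart at the shortest genes and cross or meet at the longest, where the medians are between -0.077 and 0.091.

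Calls were spread over all levels of expression. Of genes with a mean under 2 FPKM over the 6 libraries 9.71% were called higher and 15.6% lower, and of genes over 100 FPKM 22.1% and 35.4%. Changes of at least 2-fold made up 1.5% raised and 1.31% lowered of the former class and 1.98% and 1.47% of the latter. By chromosome, 13.1% to 15.1% of genes were higher and 21.2% to 25.8% lower on the 9 placed chromosomes, and 12.4% and 19.6% on unplaced sequence. The lower side was the larger on each of them as deposited. Under both quantile normalization and median scaling it was not on chromosomes 3 and 7, and under median scaling not on chromosome 5 or unplaced sequence either. Of 1194 assembled loci 11.1% were called higher and 16.2% lower, beside 14.3% and 23.4% of identifiers on chromosomes. At least 2-fold 2.93% were raised and 3.52% lowered, beside 1.72% and 1.57% of the 14741 identifiers on chromosomes. These differences between classes were not tested.

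Few genes differed widely between pools of a group. The median SD of a gene was 0.114 in either group, and 41 genes spanned at least 2 log2 units among the 3 pools of a group. Of these 41, 9 were assembled loci, as were 1194 of the 18366 tested genes, and 2 were called, beside 36.4% of all. A wide spread among pools makes a call in the fit less likely, so this low count follows in part from how the 41 were chosen. Their median level was 5.51 FPKM, beside 9.0 FPKM over all tested genes, and their median span was 1613 bp, beside 3131.5 bp.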

How the data were processed

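RNA of pooled roots was sequenced from libraries made with the NEBNext Ultra RNA kit, per the labels' protocols. The authors deposited FPKM values per gene and library, to 2 decimals, without counts. Per the submitters' processing notes, the tools included DESeq2 1.22.1, StringTie 1.3.4d, featureCounts 1.6.2, HISAT2 2.1.0 and fastp 0.19.3, whose roles are not stated. No source used here gives the strand setting or the handling of multiply mapped reads, so near-identical and antisense genes are uncertain.

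From these values log2(FPKM + 1) was computed and limma 3.58.1 under R 4.3.3 fitted the 4 group means over the 12 libraries together, with a variance trend and 8 residual degrees of freedom. Genes needed a mean of at least 1 FPKM in either group at 0.5 µM copper: 18366 of 20122 passed and 1756 did not. Adjusted p-values are Benjamini-Hochberg over all 18366 genes, two-sided, threshold 0.05. Depth was recovered from genes shorter than 900 bp and under 6 FPKM. At the best depth 76.1% to 79.0% of values in the 6 libraries were within 0.15 of a whole fragment, too few to rebuild counts. Floors cover counting error only. Both the fit and the depth recovery were tested on simulated data. In the simulated fit 44% of genes with a true difference of 0.5 were called, and 92% to 100% at larger ones. Of 175 calls 10 were false. The changed genes were drawn from the better expressed ones, so weakly expressed genes were not covered.

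Genes are named by rule: up to 2 rises and 2 falls, without overlap of pools, among all genes of at least 5 FPKM, abundant genes, genes called at both copper levels, genes with a called interaction, and nearly absent genes, and the strongest of the longest runs. Neighbours of Cs1g19920 and of the chromosome 3 run, the chromosome 8 neighbourhood, the remaining nearly absent genes and Cs5g04630 under copper were described after their values were seen. Members and rules were chosen with earlier results of these data known. Pathway lists stayed empty, as identifiers have no names here. Same-numbered libraries share only a number. Alternatives were the pseudocount, the filter, the scaling, the trend, a replicate block, the 6 libraries alone and leaving out each library. Results on a single copper level were read only when a library of that level was left out.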

Additional observations from a re-analysis of the deposited data

Results flagged for a closer look

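The pH difference was not the same at both copper levels for 3668 of 18366 genes, by the interaction test of the difference itself (limma, Benjamini-Hochberg). The 4 genes named for this interaction were Cs7g01050 with -3.12 and Cs1g19920 with -3.15, which were called higher at pH 3 at 0.5 µM copper and not called at 300 µM, and Cs1g26375 with 2.20 and Cs2g31070 with 2.28, which were called lower at 0.5 µM and not called at 300 µM. The rule for these 4 asked for a difference at 300 µM of the other sign or under 0.25 of that at 0.5 µM in size. Their small differences at 300 µM and large interactions thus follow in part from the choice. Other genes described above also had a called interaction.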

How the results depend on the processing

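The 31 genes given with a position or a difference kept their direction under up to 15 alternatives each, and 454 of 461 such values stayed on the same side of the threshold. The exceptions are the first locus of the chromosome 7 run and the flanking genes Cs3g08960 and Cs3g09000, given above; Cs3g08960 was also called with the replicate block and with the 6 libraries alone (-0.32, adjusted p = 0.049 in limma for both). Low pH at 0.5 µM copper called 6435 to 7962 genes under the alternatives other than the stricter filter (5447). It called 4683 to 5632 when a library at 0.5 µM was left out, with 1833 to 2222 higher and 2830 to 3424 lower. These calls and the named genes were not read with a copper-treated library left out. Of the 6685 calls, 5824 were shared under median scaling, 5948 under quantile normalization, 6548 with the 6 libraries alone and 4613 without replicate 3 of the pH 3 group. With the replicate block 6848 genes were called; same-numbered pH 3 and control libraries deviated together at r = -0.001, 0.042 and 0.046, so the numbers were not taken as pairs, and not every library correlated best with its own number.

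The size of changes near the floor set the 2-fold counts: a pseudocount of 0.1 gave 1227 genes, 575 higher and 652 lower. It also gave 117 adjacent pairs (68 at a pseudocount of 0.5) against 45, and 220 raised genes also higher at 300 µM, 351 lowered genes also lower, 64 lowered genes higher there, and 158 lowered genes with an interaction above 0. Median scaling gave 388 higher and 244 lower by 2-fold, and quantile normalization 398 and 269. Leaving out a library gave 571 to 697 genes of at least 2-fold (300 to 353 higher, 270 to 356 lower), 38 to 50 adjacent pairs, 28 to 67 raised genes that were lower at 300 µM, 121 to 152 that were higher, 165 to 221 lowered genes also lower, 24 to 33 higher, 175 to 215 and 84 to 116 genes with an opposed interaction, 6395 to 8257 calls at 300 µM, 2947 to 4089 interactions and a span contrast of 0.22 to 0.32. The cause of these shifts was not tested. Depth limits statements on genes of 1 kb under about 0.169 FPKM, and on shorter genes at higher values.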
